A study of Mus musculus with 12 samples.

Results

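Aminoacyl-tRNA synthetases were described in the livers of untreated mice, of mice made diabetic with STZ, and of STZ mice that received MENS. The members were 36 genes taken from a list by symbol, 20 for cytosolic and 16 for mitochondrial enzymes, and the brightest probe over all arrays stood for each gene. The array measured 32 of them, 18 cytosolic and 14 mitochondrial, among 17742 genes in all. Dars, Yars, Iars2 and Yars2 were not matched to a named probe and were not analysed here. The gene listed as Mars appears under its newer name Mars1.

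Aminoacyl-tRNA synthetases join each amino acid to its transfer RNA, the step that sets which residue a codon gives in protein synthesis. The cytosol and the mitochondrion mostly use separate enzymes, all made from nuclear genes, although Gars (glycine) and Kars (lysine) each give forms for both compartments. Eprs carries the glutamate and the proline activity on 1 chain, and the cytosolic phenylalanine enzyme is built of the subunits Farsa and Farsb. In mammals a group of cytosolic synthetases sits in the multisynthetase complex, held together by the scaffold proteins Aimp1, Aimp2 and Eef1e1. When amino acids run short, the transcription factor Atf4 is known to raise many cytosolic synthetases. The liver, which makes most plasma proteins, has a high demand for charged transfer RNA.

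RNA came from liver tissue of mice in 3 groups. The control group had no treatment. The STZ group had diabetes induced by streptozotocin, which kills the beta cells of the pancreas, and the STZ+MENS group had the same induction and then MENS, which the labels do not spell out. It was delivered by a printed circuit board that a MENS device powered, for 1 h a day on 5 days a week over 6 weeks. All mice carry the age 8 weeks in the labels, and no source used here gives strain, sex or STZ dose. Each group had 2 liver samples with 2 arrays each, so n = 2 per group throughout. Nothing in the labels states that a sample is 1 animal, and p-values then measure only the spread between these samples, which may be technical. Levels are log2(intensity + 50), where intensity is the authors' normalized probe brightness, and every difference below is on that scale. In whole liver RNA, fewer cells of a type and less RNA per cell cannot be told apart.

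Array medians lay between 768.89 and 770.33, and no member value was below 0 on any array. The 2 arrays of a sample differed by a median of 0.11 for members against 0.118 for all genes. Aars and Aars2 each had at least 1 sample whose arrays differed by over 1, at most by 1.24 for Aars2. Of the hepatocyte markers, 9 of 12 were measured and 0 were at 0, with albumin (Alb) at an intensity between 471619 and 522631 in the 6 samples. The highest value was 575541.28 on each of the 12 arrays, so a gene this bright mostly reports its rank on the array. The median SD between the samples of a group was 0.07 over members and 0.13 over all genes for control, 0.09 and 0.12 for STZ, and 0.22 and 0.15 for STZ+MENS. By these medians the members varied less than other genes in control and STZ livers, and more in STZ+MENS livers.

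Promoters were searched for TGATGNAA, the core of the element that Atf4 binds with C/EBP partners, because cytosolic synthetases are known targets of that factor. On either strand, within 250 bases before to 50 bases after the start of the gene, the motif was present in 5 of 13 cytosolic synthetases that had a promoter sequence (38.462%), namely Aars, Gars, Iars, Tars and Yars. It was present in 0 of 14 mitochondrial synthetases and in 1219 of 27025 genes (4.511%). Among the measured members these were 4 of 11 cytosolic (36.364%) and 0 of 12 mitochondrial enzymes. The list of amino acid response genes, which are chosen in part as Atf4 targets, had it in 8 of 27 (29.63%). A RefSeq promoter was matched for 27 of the 36 members. A match to the motif is a string of letters and not a shown binding site.

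The 4 measured genes with the motif are printed because they include the member furthest above control in both STZ groups (Aars) and members at their lowest in STZ+MENS livers (Iars, Tars). Each window runs 5′ to 3′ on the gene's strand from 125 bases before to 25 bases after the start (RefSeq, GRCm38.p6), and the capitals mark the motif or its reverse complement. Aars lies on the plus strand at chr8:111033717-111033866, Gars on the plus strand at chr6:55037876-55038025, Iars on the plus strand at chr13:49682005-49682154 and Tars on the minus strand at chr15:11399634-11399783.
Aars: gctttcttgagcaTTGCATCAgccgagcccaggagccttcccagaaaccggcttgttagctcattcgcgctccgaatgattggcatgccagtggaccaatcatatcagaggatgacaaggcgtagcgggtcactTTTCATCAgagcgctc
Gars: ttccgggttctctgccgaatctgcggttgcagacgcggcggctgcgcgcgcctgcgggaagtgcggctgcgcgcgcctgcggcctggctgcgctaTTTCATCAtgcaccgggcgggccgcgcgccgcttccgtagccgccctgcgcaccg
Iars: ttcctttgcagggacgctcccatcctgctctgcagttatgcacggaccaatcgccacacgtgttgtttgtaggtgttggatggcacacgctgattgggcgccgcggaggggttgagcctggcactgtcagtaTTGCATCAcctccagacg
Tars: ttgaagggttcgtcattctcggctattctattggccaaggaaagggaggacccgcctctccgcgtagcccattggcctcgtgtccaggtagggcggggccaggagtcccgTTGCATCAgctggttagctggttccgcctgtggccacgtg

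Aars had 2 matches, the first base of which lay 112 bases before and 10 bases after the start. The single match lay 30 bases before the start in Gars, 15 bases before it in Tars and 8 bases after it in Iars. Between STZ+MENS and control, Tars was at -0.84, Iars at -0.76, Gars at 0.27 and Aars at 1.38. In that comparison the 4 genes did not share a direction. Between STZ and control all 4 were above 0, as were 47.6% of all genes. Aars was at 1.20 there, Tars at 0.27, Iars at 0.21 and Gars at 0.09. For STZ+MENS against STZ, Tars was at -1.12, Iars at -0.97, Gars at 0.18 and Aars at 0.18. A part of Atf4 in these values was not tested.

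**Figure D1:**
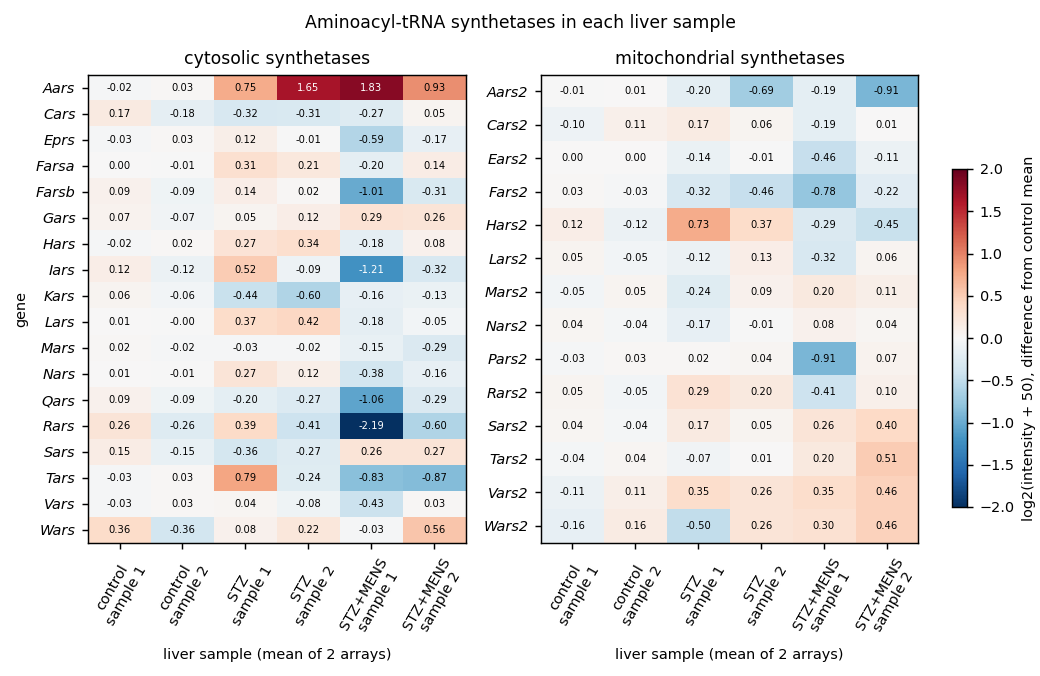
Level of each of the 32 measured synthetases in each liver sample, on the log2(intensity + 50) scale, as the difference from the mean of the control samples (colour and printed number; rows are genes, columns are samples, each the mean of 2 arrays; colours saturate at the ends of the bar). Aars is higher in every STZ and STZ+MENS sample, and Rars, Iars, Qars and Farsb are lowest in STZ+MENS sample 1.

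No synthetase passed an adjusted p of 0.05 in any of the 3 comparisons (limma, Benjamini-Hochberg over 17742 genes). The lowest adjusted p among members was 0.17 for STZ against control, 0.068 for STZ+MENS against STZ and 0.162 for STZ+MENS against control. Over all genes the test called 1 gene, Top2b, for STZ against control (0.00564%), 0 for STZ+MENS against STZ and 1, again Top2b, for STZ+MENS against control (0.00564%). With an unadjusted p under 0.05 the comparisons had 4, 10 and 6 of the 32 members, in that order. These counts are read below against the share of all genes with such a p, and members are described by their values. The 3 comparisons share groups, so a high STZ value raises the first difference and lowers the second.

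In STZ livers against control livers, synthetases of both classes lay on both sides of control. The median difference was 0.08 over the 18 cytosolic and -0.01 over the 14 mitochondrial enzymes, beside -0.02 over all genes. An unadjusted p under 0.05 was reached by 4 of 32 members (12.5%), beside 17% of all genes. Of these, 3 were higher, where all genes had 8.48%, and 1 was lower, where all genes had 8.49%. The 2 STZ samples lay wholly above or below the 2 control samples for 17 members (53.1%), beside 52.1% of all genes. They lay above for 9 members and below for 8, beside 24% and 28.2% of all genes.

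Aars, the alanine enzyme, showed the largest difference of any member in this comparison. It stood at 8.23 and 8.28 in the control samples, 9 and 9.90 in STZ and 10.08 and 9.18 in STZ+MENS. The means of all 4 samples of the STZ groups lay above both control means, and the STZ and STZ+MENS samples overlapped. Single arrays did not separate. Control sample 2 had arrays at 8.80 and 7.75, STZ sample 1 at 8.64 and 9.35, and STZ+MENS sample 2 at 9.78 and 8.58. Aars was 2.29-fold higher in STZ than in control (difference 1.20 ± 0.38 SE, unadjusted p = 0.0198, adjusted p = 0.212). The difference was 0.74 without STZ sample 2, and 0.57 with the first array of each sample alone against 1.83 with the second. In the limma fit of 12 arrays with sample as random block, its unadjusted p was 0.0581.

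Kars, the lysine enzyme of the multisynthetase complex, went the other way. It stood at 14.38 and 14.26 in the controls, 13.88 and 13.72 in STZ livers and 14.16 and 14.19 in STZ+MENS livers. The STZ samples were the lowest of the 6, and the STZ+MENS samples lay between the other groups. Kars was 1.44-fold lower in STZ than in control (difference -0.52 ± 0.14 SE, unadjusted p = 0.00925, adjusted p = 0.17). Lars, the leucine enzyme, which also senses leucine for mTORC1, was at 13.40 and 13.39 in the controls, 13.76 and 13.81 in STZ livers and 13.21 and 13.34 in STZ+MENS livers. Here the STZ samples were the highest, at a difference of 0.39 ± 0.13 SE from control (unadjusted p = 0.0256).

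Among the mitochondrial enzymes, Hars2, which charges histidine, was at 12.57 and 12.32 in the controls, 13.18 and 12.81 in STZ livers and 12.16 and 12 in STZ+MENS livers. The STZ samples were the highest and the STZ+MENS samples the lowest of the 6. Its difference between STZ and control was 0.55 ± 0.19 SE (unadjusted p = 0.024). A second, dimmer probe for Hars2 gave -0.10, the opposite sign. The cytosolic histidine enzyme Hars was at 13.80 and 13.84 in the controls, 14.09 and 14.16 in STZ livers and 13.64 and 13.90 in STZ+MENS livers, a difference of 0.31 ± 0.15 SE between STZ and control.

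None of the other members had an unadjusted p under 0.05 for STZ against control. Fars2, the mitochondrial phenylalanine enzyme, was at 14.13 and 14.07 in the controls, 13.78 and 13.64 in STZ livers and 13.32 and 13.88 in STZ+MENS livers, so all samples of both STZ groups lay below control. Vars2, the mitochondrial valine enzyme, was at 10.40 and 10.62 in the controls, 10.86 and 10.77 in STZ livers and 10.86 and 10.97 in STZ+MENS livers, with all samples of both STZ groups above control. The differences between STZ and control were -0.39 ± 0.21 for Fars2 and 0.30 ± 0.15 for Vars2. Their dimmer probes had the opposite sign, at 0.08 and 0.09 for Fars2 and -0.19 for Vars2. Of the remaining cytosolic enzymes, Sars and Cars were at -0.31 each and Qars at -0.23, and Farsa was at 0.27, Tars at 0.27, Iars at 0.21, Nars at 0.19 and Wars at 0.15. Farsb, Gars, Eprs, Mars, Vars and Rars lay between -0.02 and 0.09. Of the remaining mitochondrial enzymes, Aars2 was at -0.45, Rars2 at 0.24, and Sars2, Cars2, Nars2, Mars2, Ears2, Wars2, Tars2, Pars2 and Lars2 lay between -0.12 and 0.12. Leaving out control sample 1 took the count of 4 members to 1. Leaving out control sample 2 or either STZ sample took it to 2, while the share of all genes was between 10.2% and 11.6% in these fits.

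**Figure D2:**
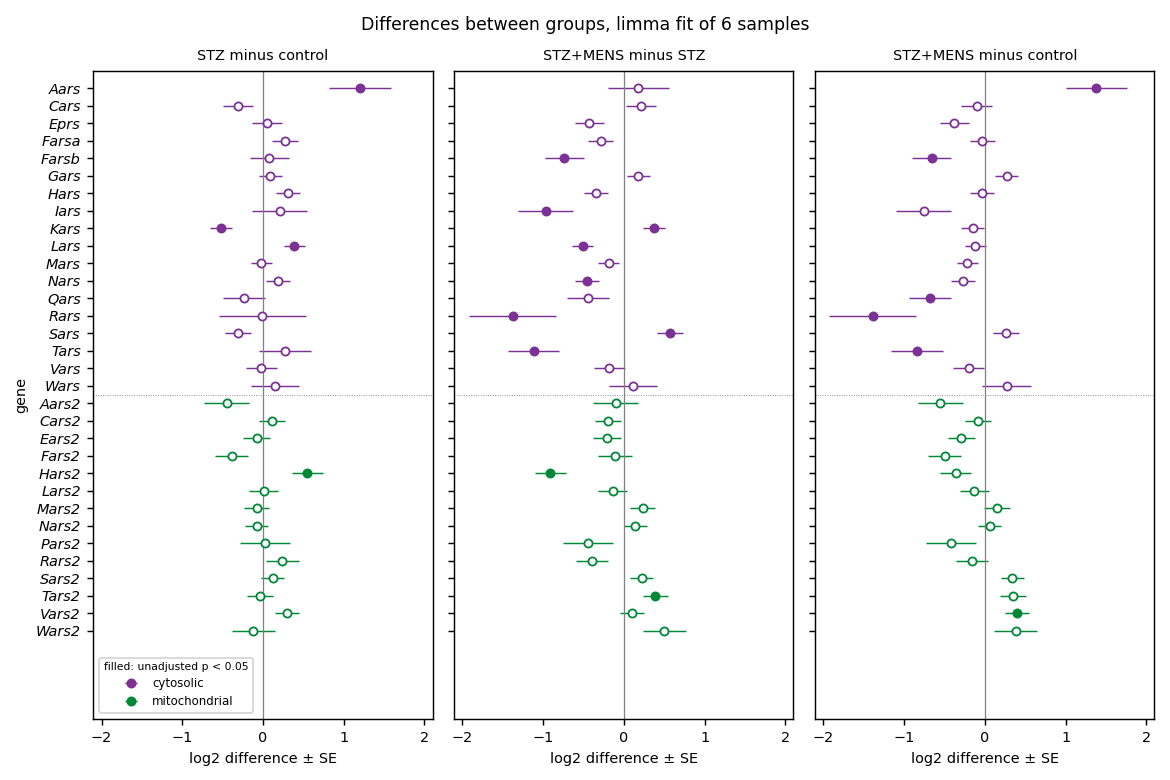
Difference between groups for each synthetase in the 3 comparisons, on the log2(intensity + 50) scale, with bars for the standard error from the limma fit of 6 samples; purple marks cytosolic and green mitochondrial enzymes, and filled points have an unadjusted p under 0.05. Most cytosolic enzymes lie left of 0 in the middle panel, with Rars at -1.38 and Tars at -1.12, while the mitochondrial enzymes lie on both sides.

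In STZ+MENS livers against STZ livers, cytosolic synthetases lay mostly below STZ and mitochondrial ones on both sides. The median difference was -0.32 over the 18 cytosolic and -0.10 over the 14 mitochondrial enzymes, beside 0.06 over all genes. Of the cytosolic enzymes 12 of 18 were below 0, and of the mitochondrial 8 of 14, beside 7730 of all 17742 genes. An unadjusted p under 0.05 was reached by 10 of 32 members (31.2%), beside 25.4% of all genes. Of these, 7 were lower and 3 higher, where all genes had 12.8% lower and 12.6% higher. By class these were 8 of 18 cytosolic (44.4%) and 2 of 14 mitochondrial enzymes (14.3%). For 23 members (71.9%) both STZ+MENS samples lay on 1 side of both STZ samples, beside 57.9% of all genes. They lay below STZ for 14 and above for 9, beside 23.9% and 34% of all genes.

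Tars, the threonine enzyme, was at 13.87 and 13.92 in the controls, 14.68 and 13.65 in STZ livers and 13.06 and 13.03 in STZ+MENS livers. Both STZ+MENS samples lay below all 4 others, and STZ sample 1 stood apart as the highest. Tars was 2.17-fold lower in STZ+MENS than in STZ (difference -1.12 ± 0.32 SE, unadjusted p = 0.0122, adjusted p = 0.108). The difference was between -1.63 and -0.60 when 1 sample at a time was left out.

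Within the multisynthetase complex, Rars, the arginine enzyme, had the largest difference and the widest spread. It was at 11.71 and 11.19 in control, at 11.84 and 11.04 in STZ and at 9.26 and 10.85 in STZ+MENS. STZ+MENS sample 1 was far below every other sample, and sample 2 was just below the lower STZ sample. Rars differed by -1.38 ± 0.54 SE (2.6-fold lower, unadjusted p = 0.0424), and by -0.59 without STZ+MENS sample 1. Iars, the isoleucine enzyme, was at 12.28 and 12.03 in the controls, 12.67 and 12.06 in STZ livers and 10.95 and 11.83 in STZ+MENS livers. Again sample 1 was the lowest of all, and the difference was -0.97 ± 0.34 SE (unadjusted p = 0.0267), or -0.53 without that sample.

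Lars showed a smaller but tighter difference from STZ, -0.51 ± 0.13 SE (unadjusted p = 0.00828), between -0.58 and -0.45 as samples were left out. Kars was higher in STZ+MENS than in STZ by 0.37 ± 0.14 SE (unadjusted p = 0.0359), and that p was above 0.05 whichever sample was left out. The other members of the complex with a measured probe were below STZ, with Eprs at -0.43 ± 0.18, Qars at -0.44 ± 0.26 and Mars at -0.19 ± 0.13.

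Outside the complex, Farsb, the beta subunit of the phenylalanine enzyme, was at 14.13 and 13.95 in the controls, 14.18 and 14.06 in STZ livers and 13.03 and 13.73 in STZ+MENS livers. Both STZ+MENS samples lay below the rest, sample 1 by more. Its difference from STZ was -0.74 ± 0.24 SE (unadjusted p = 0.0228), or -0.39 without STZ+MENS sample 1. Its partner subunit Farsa was at -0.29 ± 0.16. Nars, the asparagine enzyme, was at 15.05 and 15.04 in the controls, 15.31 and 15.16 in STZ livers and 14.67 and 14.88 in STZ+MENS livers. Its difference from STZ was -0.46 ± 0.15 SE (unadjusted p = 0.0202), and sample means did not overlap between any pair of groups. Single arrays did, since STZ+MENS sample 2 had arrays at 15.15 and 14.62. The first was above every control array and above the lowest STZ array, at 15.14.

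Sars, the serine enzyme, had the largest difference above STZ. It was at 13.78 and 13.47 in the controls, 13.27 and 13.36 in STZ livers and 13.88 and 13.89 in STZ+MENS livers, so STZ+MENS was the highest group and STZ the lowest. The difference between STZ+MENS and STZ was 0.57 ± 0.16 SE (1.49-fold, unadjusted p = 0.0105, adjusted p = 0.103). The arrays behind the STZ+MENS means of Sars were further apart than those means, as the plot of single arrays shows. Of the other cytosolic enzymes, Hars was at -0.35, Vars at -0.18, Cars at 0.21, Gars at 0.18, Aars at 0.18 and Wars at 0.11.

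**Figure D3:**
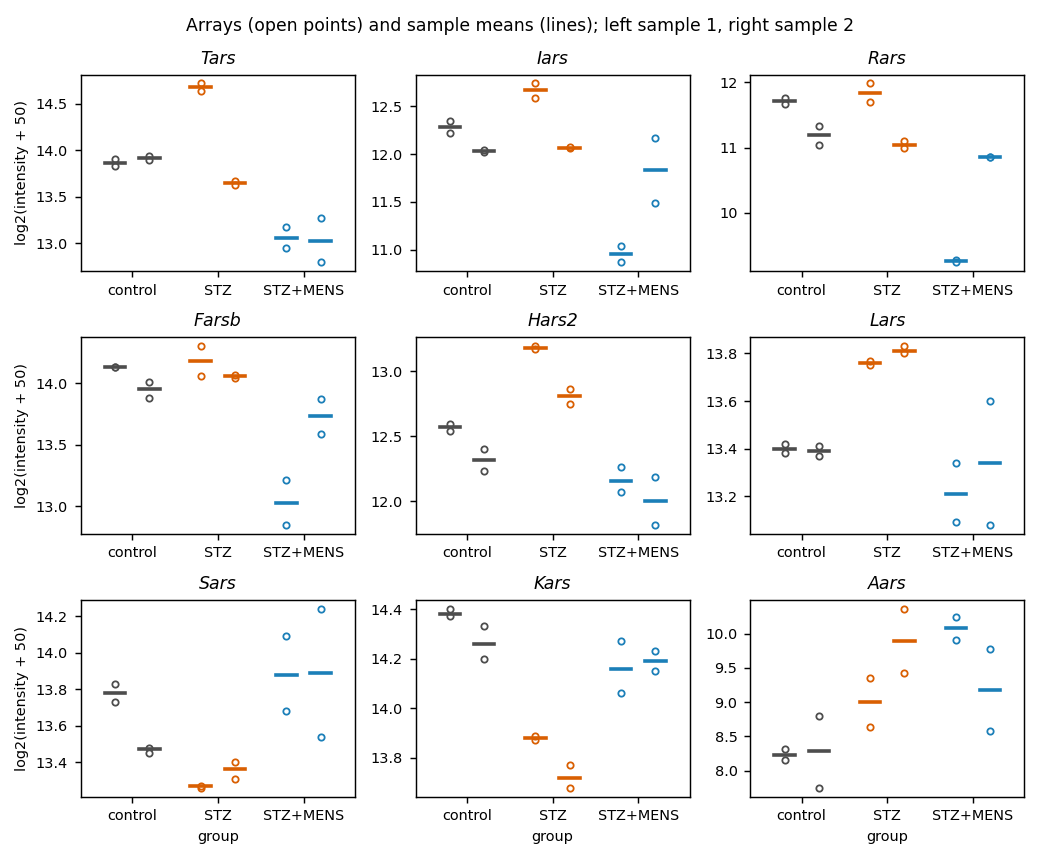
Single arrays (open points) and sample means (lines) of 9 synthetases on the log2(intensity + 50) scale, with sample 1 on the left and sample 2 on the right of each group; the axis of each panel has its own range and does not start at 0. Rars, Iars and Farsb show the gap between the STZ+MENS samples, Tars and Hars2 show both STZ+MENS samples below all others, and the arrays of Aars are widely spaced.

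Among the mitochondrial enzymes, Hars2 differed most between STZ+MENS and STZ, by -0.91 ± 0.19 SE (1.88-fold lower, unadjusted p = 0.0025, adjusted p = 0.068). This was the smallest p of any member in any comparison, and the difference was between -1.10 and -0.72 as samples were left out. The second Hars2 probe was at -0.20. Tars2, the mitochondrial threonine enzyme, was at 0.39 ± 0.16 (unadjusted p = 0.049), but its other probes gave -0.79 and 0.12, so its direction depended on the probe. Over the 8 members with over 1 probe, all probes had the same sign in 2 for STZ against control, 5 for STZ+MENS against STZ and 4 for STZ+MENS against control. Wars2 was at 0.50, Mars2 at 0.23, Sars2 at 0.22, Nars2 at 0.14 and Vars2 at 0.10. Pars2 was at -0.45, Rars2 at -0.40, Ears2 at -0.21, Cars2 at -0.20, Lars2 at -0.14, Fars2 at -0.11 and Aars2 at -0.10.

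Leaving out STZ+MENS sample 1 took the count of 10 members for STZ+MENS against STZ to 5, with 17.1% of all genes. Leaving out STZ sample 1 took it to 3, with 13.5% of all genes. Fitted to the 12 arrays with the liver sample as a random block, the comparison gave 6 members with an adjusted p under 0.05 (Farsb, Hars2, Iars, Kars, Rars and Tars), together with 17.4% of all genes.

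In STZ+MENS livers against control livers, an unadjusted p under 0.05 was reached by 6 of 32 members (18.8%), beside 18% of all genes, so the family's share was near the background. Of these, 4 were lower and 2 higher, where all genes had 9.18% lower and 8.82% higher. The median difference was -0.17 over cytosolic and -0.11 over mitochondrial enzymes, beside 0.02 over all genes. The groups did not overlap for 22 members (68.8%), beside 48.6% of all genes, with 14 below control and 8 above, beside 23% and 25.6% of all genes.

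Aars was the member with the smallest p against control, 2.59-fold higher in STZ+MENS (difference 1.38 ± 0.38 SE, unadjusted p = 0.0109, adjusted p = 0.162). Vars2 was also higher, by 0.40 ± 0.15 SE (unadjusted p = 0.0341), with a second probe at 0. Sars2, the mitochondrial serine enzyme, was at 11.97 and 11.90 in the controls, 12.11 and 11.99 in STZ livers and 12.20 and 12.34 in STZ+MENS livers. Its sample means rank in the order control, STZ, STZ+MENS without overlap. Single arrays of STZ overlapped both other groups. STZ sample 1 had arrays at 11.96 and 12.26, while a control array reached 11.98 and an STZ+MENS array was at 12.06. The difference of Sars2 between STZ+MENS and control was 0.34 ± 0.14 SE (unadjusted p = 0.0504).

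The members with an unadjusted p under 0.05 below control were all cytosolic. Rars was at -1.39 ± 0.54 SE (2.62-fold lower), Tars at -0.84 ± 0.32 SE and Farsb at -0.66 ± 0.24 SE. Without STZ+MENS sample 1, Rars was at -0.60 and Farsb at -0.31. Qars, the glutamine enzyme of the complex, was at 12.18 and 12 in the controls, 11.89 and 11.82 in STZ livers and 11.03 and 11.80 in STZ+MENS livers. All its STZ and STZ+MENS samples lay below control, and the difference of -0.68 ± 0.26 SE (unadjusted p = 0.0394) was -0.29 without STZ+MENS sample 1. Iars was at -0.76, Eprs at -0.38, Nars at -0.27, Mars at -0.22, Vars at -0.20, Kars at -0.15, Lars at -0.12, Cars at -0.10, Hars at -0.04 and Farsa at -0.03, and Gars, Wars and Sars were at 0.27, 0.27 and 0.26. Of the mitochondrial enzymes, Aars2 was at -0.55, Fars2 at -0.50, Pars2 at -0.42, Hars2 at -0.36, Ears2 at -0.29, Rars2 at -0.16, Lars2 at -0.13 and Cars2 at -0.09. Wars2 was at 0.38, Tars2 at 0.35, Mars2 at 0.15 and Nars2 at 0.06. The count of 6 members fell when a control sample, an STZ sample or STZ+MENS sample 1 was left out. It rose without STZ+MENS sample 2. The share of all genes with such a p moved the same way each time.

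The measured enzymes of the multisynthetase complex all lay below control in STZ+MENS livers. The 7 genes (Eprs, Iars, Kars, Lars, Mars, Qars and Rars) had a median difference of -0.38 against control and -0.44 against STZ, beside -0.04 and -0.18 over the 11 cytosolic enzymes outside the complex. The means of both STZ+MENS samples lay below those of both controls for 7 of 7, where 23% of all genes did so. Single arrays of these groups overlapped for each of these genes except Rars. The first array of STZ+MENS sample 2 had Eprs at 14.30, Lars at 13.60 and Mars at 14.93, above every control array. Against STZ, the sample means of 6 of 7 lay below and those of Kars above, all without overlap. Of all genes, 57.9% did not overlap, 23.9% below and 34% above. Single arrays of STZ+MENS and STZ overlapped for Eprs, Iars, Mars and Qars. In STZ against control the median difference of the 7 genes was -0.01. The median of the 7 by sample, as the difference from the control mean, was 0.06 and -0.06 in the controls, 0.11 and -0.09 in STZ livers and -0.59 and -0.29 in STZ+MENS livers.

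**Figure D4:**
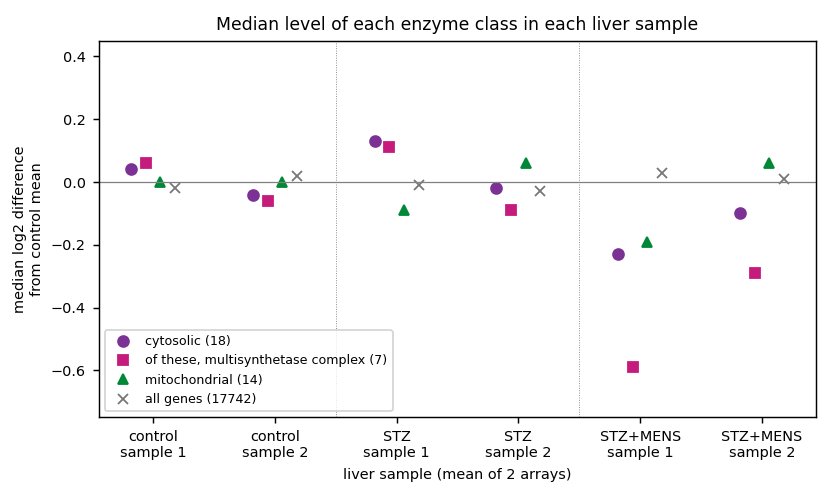
Median over genes of the difference from the control mean, log2(intensity + 50), in each liver sample for cytosolic enzymes, the multisynthetase complex enzymes among them, mitochondrial enzymes and all genes. The complex enzymes are at -0.59 and -0.29 in the STZ+MENS samples, while the mitochondrial median is at -0.19 in STZ+MENS sample 1 and 0.06 in sample 2.

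Cytosolic and mitochondrial enzymes differed in their medians by 0.10 for STZ against control, -0.22 for STZ+MENS against STZ and -0.06 for STZ+MENS against control (cytosolic minus mitochondrial). The SD of this difference between samples of a group was 0.14, and no test was made of a score over listed genes. The second value, -0.22, was -0.12 with the mean of all probes and -0.12 with the first array alone. It was -0.34 with the second array alone and between -0.34 and -0.22 as samples were left out. With 2 samples per group the SD is itself imprecise, and it cannot decide whether these values differ from 0. By sample, the cytosolic median was 0.04 and -0.04 in the controls, 0.13 and -0.02 in STZ livers and -0.23 and -0.10 in STZ+MENS livers. The mitochondrial median was 0 in both control samples, -0.09 and 0.06 in STZ and -0.19 and 0.06 in STZ+MENS. The 2 classes thus lay on the same side of control in STZ+MENS sample 1 and on opposite sides in sample 2.

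Set side by side for the same amino acid, 15 pairs of a cytosolic and a mitochondrial enzyme covered 14 amino acids. The cytosolic enzyme had the lower difference in 10 of 15 pairs for STZ+MENS against STZ (median -0.28), in 10 of 15 for STZ+MENS against control (median -0.10) and in 5 of 15 for STZ against control (median 0.12). The widest gap for STZ+MENS against STZ was that of threonine, with Tars at -1.12 and Tars2 at 0.39, a gap of -1.50 that rests on the brightest Tars2 probe. Arginine followed, with Rars at -1.38 and Rars2 at -0.40, and then phenylalanine, with Farsb at -0.74 and Fars2 at -0.11. Histidine went the other way, with Hars at -0.35 and Hars2 at -0.91. Both of these depended on the probe, since the dimmer probes gave -0.88 and -0.55 for Fars2, 0.05 and -0.07 for Hars and -0.20 for Hars2. For STZ against control the widest gap was that of alanine, with Aars at 1.20 and Aars2 at -0.45. Both enzymes had the same sign in 4, 9 and 10 of 15 pairs for STZ against control, STZ+MENS against STZ and STZ+MENS against control.

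**Figure D5:**
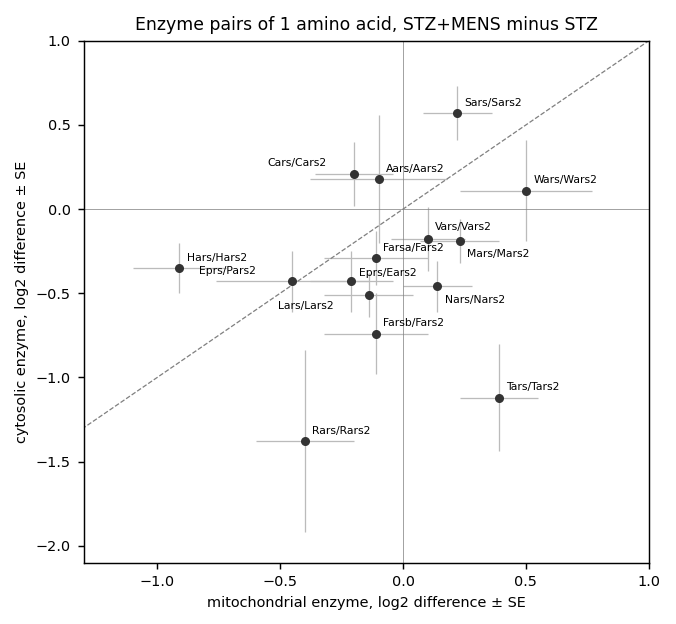
Difference between STZ+MENS and STZ for the mitochondrial enzyme (horizontal) and the cytosolic enzyme (vertical) of the same amino acid, log2(intensity + 50), with standard errors; the dashed line marks equal differences and Eprs and Fars2 each appear in 2 pairs. The cytosolic enzyme is below the line in 10 of 15 pairs, furthest for Tars/Tars2 and Rars/Rars2.

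The scaffold proteins and other partners of the synthetases were measured for 15 of 16 listed genes. An unadjusted p under 0.05 was reached by 1 for STZ against control, 6 for STZ+MENS against STZ (1 higher, 5 lower) and 4 for STZ+MENS against control (all lower). These were 6.67%, 40% and 26.7% of the partners, beside 17%, 25.4% and 18% of all genes. Median differences were 0.20, -0.17 and -0.15. Eef1e1, a scaffold of the complex, was at 11.15 and 10.90 in the controls, 11.42 and 11.17 in STZ livers and 10.29 and 10.61 in STZ+MENS livers, with a difference of -0.85 ± 0.19 SE between STZ+MENS and STZ. Aimp1, the scaffold that binds transfer RNA, was at 12.25 and 11.99, 13.12 and 12.53, and 10.82 and 11.81 in the same order, with a difference of -1.51 ± 0.36 SE. The scaffold Aimp2, named after its values were seen, was at 0.01 ± 0.17.

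Tarsl2, a further cytosolic threonine enzyme, was at 10.69 and 10.42 in the controls, 11.08 and 11.04 in STZ livers and 9.53 and 10.24 in STZ+MENS livers. Its difference of -1.17 ± 0.25 SE from STZ was close to that of Tars. Aarsd1, an editing protein that clears mischarged alanine transfer RNA, was at 0.64 ± 0.15 for the same comparison. Qrsl1, a subunit of the mitochondrial enzyme that makes glutamine transfer RNA by amidation, was at 0.42 ± 0.17 for STZ against control. Pstk, the kinase on the path to selenocysteine transfer RNA, was at -0.92 ± 0.21 for STZ+MENS against control, with its STZ+MENS samples at 10.43 and 11.00 and its controls at 11.72 and 11.56. None of these passed over all genes.

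Genes of transfer RNA processing, modification and export were measured for 45 of 47. An unadjusted p under 0.05 was reached by 6 (4 higher, 2 lower) for STZ against control, 13 (4 higher, 9 lower) for STZ+MENS against STZ and 14 (8 higher, 6 lower) for STZ+MENS against control, with medians of 0.10, -0.01 and -0.01. These were 13.3%, 28.9% and 31.1% of the list, beside 17%, 25.4% and 18% of all genes, so the first 2 were near or below the background. Nsun2, a cytosine methyltransferase of transfer RNA, was higher than control by 0.93 ± 0.15 in STZ and 0.97 ± 0.15 in STZ+MENS. Xpot, the nuclear exporter of transfer RNA, was at -0.85 ± 0.17 for STZ+MENS against STZ and -0.74 ± 0.17 against control, with both STZ+MENS samples below all others. Trmt10c, of the mitochondrial RNase P, was at -1.60 ± 0.34 and Trnt1, which adds the CCA end, at -0.93 ± 0.21 against STZ. Trmt10c stood at 9.97 and 10.94 in STZ+MENS and at 12.30 and 11.80 in STZ. Pop4 (1.44) and Osgep (-0.43) were the other leading genes for STZ against control, and Trmt1 (0.68) for STZ+MENS against control. Pop4 stood at 13.13 and 12.20 in the controls and at 14.03 and 14.18 in STZ. No gene of the list passed an adjusted p of 0.05.

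The amino acid response, Atf4 and its known targets, was measured for 29 of 30 genes. It had 4 genes with an unadjusted p under 0.05 for STZ against control (2 higher, 2 lower), 7 for STZ+MENS against STZ (5 higher, 2 lower) and 4 for STZ+MENS against control (all higher), with medians of 0.04, 0.05 and -0.08. These were 13.8%, 24.1% and 13.8% of the list, each below the 17%, 25.4% and 18% of all genes. Trib3, a pseudokinase of this response and of fasting liver, was 6.32-fold higher in STZ than in control (2.66 ± 0.53) and 4.39-fold higher in STZ+MENS (2.13 ± 0.53). Its controls were far apart, at 10.85 and 12.41, so the size of these folds rests in part on control sample 1. Trib3 stood at 14.59 and 14 in STZ and at 13.41 and 14.12 in STZ+MENS. Chac1, a glutathione-degrading enzyme, was at -1.04 ± 0.24 and Mthfd2, of mitochondrial folate metabolism, at -0.66 ± 0.16 for STZ against control. Atf5, a related transcription factor, was at 0.57 ± 0.15 for STZ+MENS against STZ and 0.81 ± 0.15 against control. Mthfd2 (0.56) and Cth (-1.80), the cystathionine lyase, were the other leading genes against STZ, and Nupr1 (0.77) against control. Cth stood at 17.61 in both STZ samples and at 14.96 and 16.66 in STZ+MENS, so sample 1 was the further from STZ.

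The hepatocyte markers Apob and Cps1, named after their values were seen, were lowest in STZ+MENS sample 1. Rars, Iars, Qars and Farsb were lowest in that sample too. Of the other hepatocyte markers, Alb and Hnf4a were lowest there as well. Ttr, Apoa1 and Fgb were lowest in an STZ sample, and Apoa2 and Fga in STZ+MENS sample 2. Apob had intensities of 162288 and 156980 in the controls, 177135 and 118440 in STZ livers and 19071 and 61112 in STZ+MENS livers. Cps1 had 139830 and 104024, 125841 and 87468, and 26185 and 72964 in the same order. The summed intensity of the 9 hepatocyte markers was between 3093369 and 3197648 in the controls, and 0 markers were at 0. It was between 2724377 and 2876457 in STZ livers and 2668313 and 2687725 in STZ+MENS livers. Most of this sum came from Alb, Ttr, Apoa1 and Apoa2, which sit near the highest value of the arrays. Sorted values were nearly the same on all arrays, so values there mostly give ranks, and the sum cannot measure hepatocyte content. Of the 9 markers, 3 (33.3%) had an unadjusted p under 0.05 for STZ+MENS against control and 2 (22.2%) against STZ, all lower. All genes had 18% and 25.4%.

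The erythroid markers (4 of 11 measured, 0 at 0) summed to between 82602 and 98186 in the controls, 34373 and 57479 in STZ livers and 10664 and 109729 in STZ+MENS livers. Alas2, of erythroid heme synthesis and named after its values were seen, was at 103783 in STZ+MENS sample 1 and 9156 in sample 2. The cholangiocyte markers (8 of 9 measured, 0 at 0) summed to between 16285 and 16691 in the controls, 19962 and 25552 in STZ livers and 18040 and 22876 in STZ+MENS livers. Shares with an unadjusted p under 0.05 follow for STZ against control, STZ+MENS against STZ and STZ+MENS against control. All genes had 17%, 25.4% and 18%. The 8 cholangiocyte markers had 37.5%, 12.5% and 25%, the 11 Kupffer cell markers 0%, 18.2% and 18.2%, and the 8 endothelial markers 0%, 37.5% and 0%. The 10 stellate cell markers had 40%, 20% and 30%, and the 7 neutrophil markers 14.3%, 0% and 14.3%. The 7 T and B cell markers had 28.6%, 28.6% and 14.3%, and the 5 pancreatic acinar markers 40%, 0% and 20%. These lists had 0 markers at 0. The part of any of these in the synthetase values was not tested.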

How the data were processed

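Total RNA from 6 mouse liver samples was labelled with Cy5 and read on 12 single-colour Phalanx Mouse OneArray arrays, per the labels' protocols. The deposited values are linear probe intensities that the authors had normalized. Sorted values, leaving out the 1000 lowest, spanned at most 6.31% of their mean across arrays, and between 44 and 52 of the 26423 probes on an array were below 0. How background was removed and arrays were normalized is not stated in the sources used here, and the submitters' processing notes list limma 3.30.7 without its role.

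Probes were named from the platform annotation (20377 with 1 symbol, 0 with several, 6046 unnamed here) and updated through a RefSeq table of GRCm38.p6: 18213 carried a current symbol, 2126 were found as synonyms and 38 keep their old name. Members were matched in any case, with newer names ending in 1. After raising values below 0 to 0, log2(intensity + 50) was taken, which understates changes of dim genes. Arrays of a sample were averaged. One mean per group was fitted to 6 samples over all 17742 genes with limma 3.58.1 in R 4.3.3 (3 residual and 3.2 prior degrees of freedom), two-sided, with Benjamini-Hochberg adjustment and a threshold of 0.05. Errors of differences are standard errors of that model. An exact permutation of 2 against 2 samples cannot go below p = 0.33 and was not used. The number of arrays limits the precision. The fit was tested on simulated data.

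The members and lists were chosen with earlier results of these data known. Every measured member is named; sample values are given for members among the 8 smallest p of a comparison, and related lists name up to 3 genes per comparison by smallest p. In all, 19 alternatives were run.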

Additional observations from a re-analysis of the deposited data

How the results depend on the processing

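Against 0 members with an adjusted p under 0.05 in each comparison, the fit of 12 arrays with sample as random block gave 1 (Kars) for STZ against control and 6 for STZ+MENS against STZ, where all genes had 1204 and 3079 calls. The replicate block by array number gave 1 and 4 (1024 and 2741 over all genes). Leaving out 1 sample at a time gave between 0 and 5 for STZ+MENS against STZ, with 5 (Farsb, Iars, Pars2, Qars and Rars) and 1759 genes in all without STZ+MENS sample 2. For STZ against control, the fit of those groups alone called 181 genes and no member.

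With an unadjusted p under 0.05, leaving out samples gave between 1 and 5 members for STZ against control (4 with all samples), between 3 and 14 for STZ+MENS against STZ (10) and between 0 and 9 for STZ+MENS against control (6). With a sample left out, the share of all genes with such a p rose or fell together with the member count in each comparison. These swings were therefore not particular to the synthetases. The second array alone gave 2 for the first comparison, beside 12.8% of all genes (17% in the main fit). The fit of the groups alone gave 3 for the last, beside 16% of all genes (18% in the main fit). The replicate block by liver sample number gave 4, 7 and 4; those numbers do not pair samples, since deviations of same-numbered samples correlated at between -0.0702 and 0.00496 across genes.

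The difference of the class medians for STZ against control was between -0.08 and 0.22 as samples were left out, and -0.23 with the second array alone for STZ+MENS against control. Averaging all probes turned Tars2 for STZ+MENS against STZ to -0.09 (unadjusted p = 0.588); no other member with an unadjusted p under 0.05 reversed under the alternatives run. Of the member differences with an unadjusted p under 0.05, those of Hars2, Lars and Tars for STZ+MENS against STZ kept it in all 6 fits that left out a sample, and every other lost it in at least 1. The cause of these shifts was not tested.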
